A study of Mus musculus with 22 samples.

Results

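The mouse microRNAs (miRNAs) miR-344i and miR-1198-5p, listed on the array as mmu-miR-344i and mmu-miR-1198-5p, are 2 of the 1881 measured on the arrays of this study. They were chosen because both were lower after 10 Gy in serum and in the small intestine, so their changes with dose in those sample types are given as a description, with no test. Male mice aged 8 weeks received X-rays of 10 Gy, at 1.0 Gy per minute, or 0 Gy, and RNA from serum, feces and small intestine was labelled with the dye Cy3 and hybridised to 22 Agilent arrays of 1 sample each. The groups held 4 arrays of 10 Gy serum and 2 of 0 Gy serum, 4 of 10 Gy feces and 4 of 0 Gy feces, and 4 of 10 Gy intestine and 4 of 0 Gy intestine. The mice carried no allele or agent that the labels name beyond the X-rays, and neither their strain nor the time from irradiation to collection is given there. Whether replicates are separate animals is not stated either, so a p-value reflects only how far these samples vary, which may be technical.

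A miRNA is a short RNA that guides Argonaute proteins to messenger RNAs. Its target choice rests mainly on the seed, bases 2 to 8 from its 5′ end, and a bound messenger RNA is usually translated less and degraded sooner. miRNAs also leave cells in vesicles and protein complexes, which is why serum and feces hold them. The miR-344 family is a rodent family encoded in a cluster near imprinted genes and is known mainly from brain. Of miR-1198-5p no function is given here. In a bulk sample, fewer cells of a type and less RNA per cell cannot be told apart.

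The mature sequences of both miRNAs, and of the 2 miR-344 relatives detected on all fecal arrays, are shown because the comparison of the family below turns on them. They are the RefSeq sequences on the GRCm38.p6 build, and capitals mark the seed.
miR-344i, chr7:62085281-62085300, minus strand: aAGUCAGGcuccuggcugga
miR-1198-5p, chrX:7807142-7807163, plus strand: uAUGUGUUccuggcuggcuugg
miR-344f-5p, chr7:62046225-62046246, minus strand: aGUCAGUCuccuggcuggaguc
miR-344g-5p, chr7:61982335-61982355, minus strand: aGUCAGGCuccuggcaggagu
The seed AGUCAGG of miR-344i and the seed AUGUGUU of miR-1198-5p were found in none of the other names among the 1608 array miRNAs matched to RefSeq. miR-344g-5p begins with the letters of the miR-344i seed, so its own seed is displaced by 1 base.

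Although their seeds differ, miR-344i and miR-1198-5p hold a common run of 10 letters, UCCUGGCUGG, which is in capitals in the next lines.
miR-344i: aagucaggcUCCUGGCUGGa
miR-1198-5p: uauguguUCCUGGCUGGcuugg
miR-344f-5p: agucagucUCCUGGCUGGaguc
The run covers positions 10 to 19 of miR-344i, 8 to 17 of miR-1198-5p and 9 to 18 of miR-344f-5p, counted from 1 at the 5′ end. In miR-1198-5p it therefore begins on the last base of the seed. Only these 3 of the 1608 matched miRNAs (0.187%) held it, and its reverse complement CCAGCCAGGA was in 0 of 1608. It was noticed after the pair had been chosen and is a description, not a site. In the RefSeq annotation, Mir344i overlaps no other gene. It is 1 of 13 Mir344 genes on chromosome 7, and the next protein-coding gene on 1 side is Ndn, which encodes the imprinted protein necdin. Mir1198 lies on chromosome X within the span of Gripap1, which encodes a protein of endosomal recycling.

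The labelled sample types were set against marker miRNAs. All 6 epithelial markers, among them miR-192-5p and miR-200b-3p, were detected on every fecal and every intestinal array and on no serum array. All 4 smooth muscle markers were detected on every intestinal array, but miR-133a-3p was also on every fecal array and miR-145a-5p on every serum array. Serum carried the red cell miRNA miR-486a-5p on all 6 arrays, and it was also detected on some fecal and intestinal arrays. The red cell miRNA miR-451a was on every intestinal array, but on only 1 of 4 serum arrays at 10 Gy and 2 of 2 at 0 Gy. The red cell miRNA miR-144-3p and the liver miRNA miR-122-5p were detected on none of the 22 arrays. Arrays of the same group correlated with r between 0.897 and 0.993, and no mouse spot was saturated. Each sample type had a slide of its own, and the slide's part in any difference between sample types cannot be told apart. Dose likewise followed the slide's columns, with 10 Gy arrays in the last columns and 0 Gy arrays before them, and cannot be told apart from position.

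Each miRNA was measured by 2 probes, and the values given first are the scanner's processed signals, in fluorescence units after background subtraction, averaged over the spots of a probe and not scaled between arrays. A probe was detected on an array when 50% or more of its spots were well above background, and a miRNA when at least 1 of its probes was. Both miRNAs were dim: no array gave a summed signal over 143 for miR-344i or over 54.4 for miR-1198-5p. Probes of 1 miRNA are not independent samples.

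In serum, probe 1 of miR-344i read 3.94, 1.91, 3.01 and 1.41 on the 10 Gy arrays, against 47.8 and 37.6 on the 0 Gy arrays. Probe 2 read 13.1, 7.90, 12.9 and 7.18 at 10 Gy, against 94.8 and 74.99 at 0 Gy. Both probes were low on all 4 arrays at 10 Gy and high on both arrays at 0 Gy, with a wide gap between the doses. At 10 Gy probe 1 was detected on no array and probe 2 on replicates 1 and 3, whereas at 0 Gy both probes were detected on both arrays. The summed signal averaged 12.9 ± 4.28 at 10 Gy (SD, n = 4) and 128 ± 21.2 at 0 Gy (SD, n = 2), a ratio of 0.101. As probe 1 was not well above background at 10 Gy, its scaled signal there was at least 2.39-fold lower. This bound sets the 0 Gy mean against the lowest signal of any detected probe, and such bounds were taken the same way throughout.

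The serum readings of miR-1198-5p came from 1 probe. Its probe 2 read 8.79, 2.81, 4.69 and 1.59 on the 10 Gy arrays and was detected on none of them, against 39.9 and 20.1 on the 0 Gy arrays, both detected. The 10 Gy arrays again lay below both 0 Gy arrays, although the 2 arrays at 0 Gy lay further from each other than the lower of them lay from the highest 10 Gy array. The summed signal averaged 2.00 ± 3.13 at 10 Gy (SD, n = 4) and 28.4 ± 13.7 at 0 Gy (SD, n = 2). With nothing detected at 10 Gy, the scaled signal of probe 2 was at least 1.60-fold lower there. Probe 1 of miR-1198-5p read between -3.25 and 2.14 over all 22 arrays and was detected on none, so the probes of this miRNA disagreed wherever it was detected.

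In the small intestine both miRNAs were detected on all 8 arrays, and their signals before scaling overlapped between the doses. Probe 2 of miR-344i read 17.5, 33.8, 21.4 and 28.7 at 10 Gy, against 34.9, 34.2, 51.7 and 41.2 at 0 Gy. Probe 1 read 8.28, 16.9, 8.49 and 11.9 at 10 Gy, against 17.8, 15.3, 26.4 and 20.7 at 0 Gy. For probe 2 the highest array at 10 Gy, replicate 2, came just under the lowest at 0 Gy, and for probe 1 the same array lay above the lowest at 0 Gy. The summed signal averaged 36.7 ± 11.2 at 10 Gy and 60.6 ± 12.8 at 0 Gy (SD, n = 4 each), a ratio of 0.606.

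Probe 2 of miR-1198-5p read 36.3, 42.6, 42.6 and 39.0 in intestine at 10 Gy, against 45.8, 41.6, 56.2 and 50.7 at 0 Gy. Replicates 2 and 3 at 10 Gy read above replicate 2 at 0 Gy, so the doses overlapped. The summed signal averaged 40.5 ± 3.95 at 10 Gy and 47.9 ± 5.74 at 0 Gy (SD, n = 4 each), a ratio of 0.846.

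In feces neither miRNA was detected on any of the 8 arrays. Probe 2 of miR-344i read between 1.13 and 3.59 at 10 Gy, and between -0.58 and 11.2 at 0 Gy. Probe 2 of miR-1198-5p read between 2.36 and 4.34 at 10 Gy, and between 1.34 and 13.3 at 0 Gy. The highest reading of each came from replicate 3 of 0 Gy feces, the array with the most detected miRNAs of all (675) and the highest 75th percentile (2627). On that array 46.7% of the spots of probe 2 of miR-1198-5p were well above background, just short of the 50% required, and the scanner software's own gene call marked both miRNAs as detected there and on no other fecal array.

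**Figure D1:**
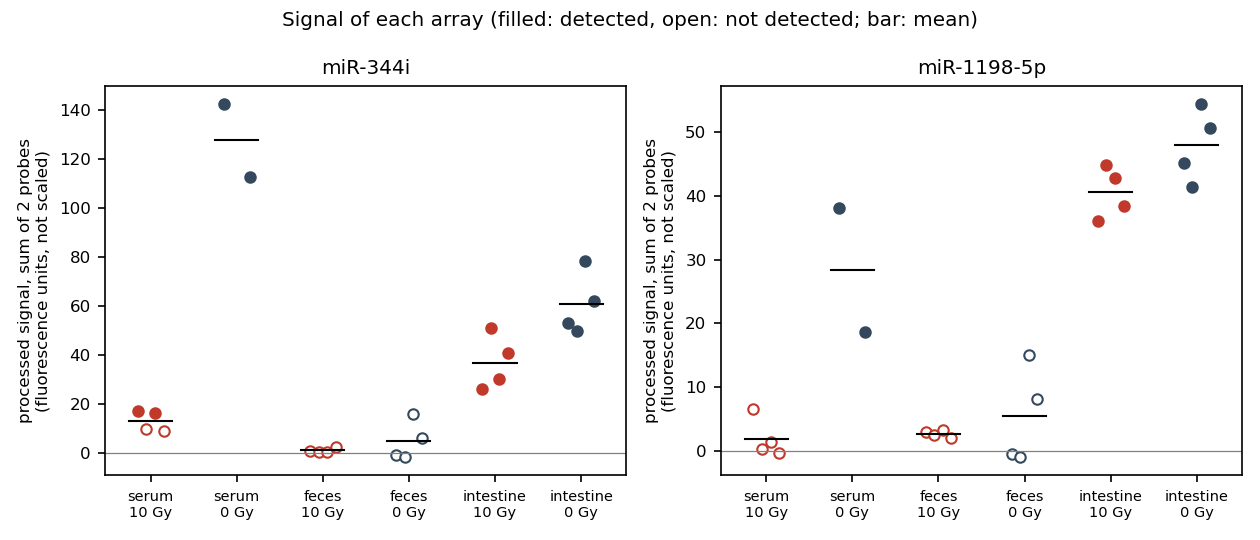
Processed signal of miR-344i and miR-1198-5p on each array, summed over 2 probes and not scaled (linear axis, fluorescence units), by sample type and dose. Filled points are arrays on which the miRNA was detected, open points are arrays on which it was not, and bars are group means. In serum all 10 Gy points lie below both 0 Gy points, in feces all points are open, and in intestine the doses overlap.

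Arrays differ in overall brightness, so each summed signal was also scaled: the array's 75th percentile, computed from miRNAs that every array of that sample type detected, was the divisor, and log2 was taken above a floor. These scaled levels say how a miRNA stood relative to the others on its array. In intestine the percentile was higher on every 10 Gy array, 553 to 880, than on any 0 Gy array, 439 to 538. The number of detected miRNAs moved the same way, 332 to 389 at 10 Gy and 285 to 300 at 0 Gy. In serum the percentiles overlapped, 128 to 308 at 10 Gy and 224 and 517 at 0 Gy, and the part of brightness in the results was not tested beyond the values without scaling given below.

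On the scaled log2 level, miR-344i in serum stood at -4.17, -3.94, -4.02 and -3.90 at 10 Gy, against -1.86 and -0.99 at 0 Gy. The difference was -2.58, the 2nd most negative of the 193 miRNAs measured in serum, over which the median was -0.11. miR-1198-5p in serum was at the floor of -4.63 on all 4 arrays at 10 Gy, against -3.76 and -3.58 at 0 Gy. Its difference of -0.96, the 18th most negative, therefore depends on where the floor was put. Neither miRNA overlapped between the doses in serum, as was so in the same direction for 20.2% of all miRNAs measured there.

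On the same scale in intestine, miR-344i stood at -4.42, -3.70, -4.88 and -4.03 at 10 Gy, against -3.06, -3.29, -2.78 and -3.06 at 0 Gy. The difference of -1.21 was the 10th most negative of 335, over which the median was 0.16. miR-1198-5p stood at -3.94, -3.88, -4.36 and -4.11 at 10 Gy, against -3.28, -3.55, -3.31 and -3.35 at 0 Gy, a difference of -0.70 and the 41st most negative. After scaling neither miRNA overlapped between the doses, as for 15.8% of all miRNAs in intestine. Without scaling the intestinal differences were -0.75 for miR-344i and -0.24 for miR-1198-5p.

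**Figure D2:**
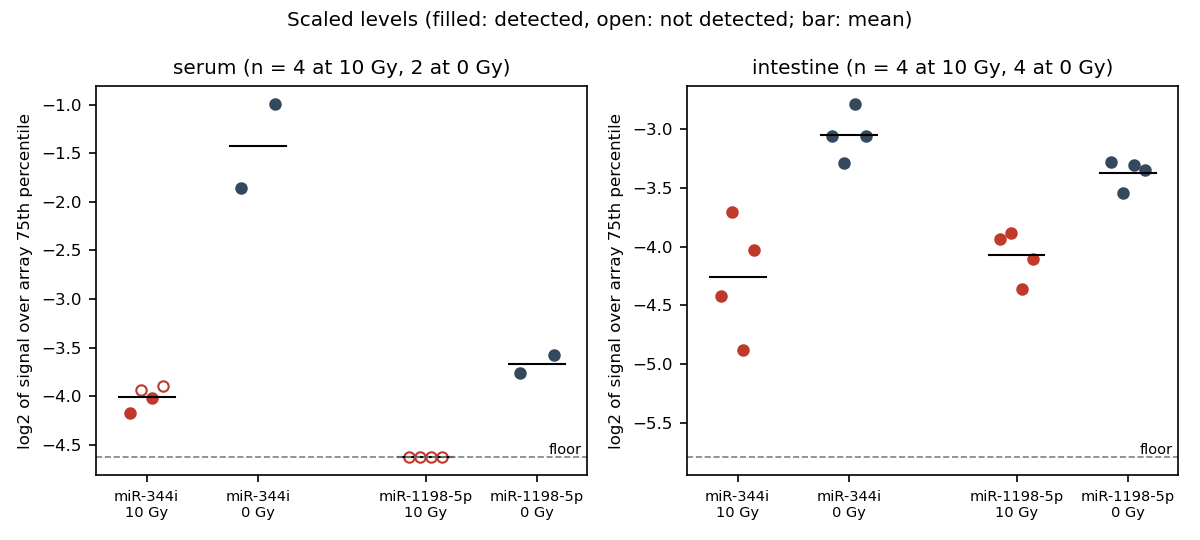
Scaled log2 level of miR-344i and miR-1198-5p on each array in serum and in small intestine. Filled points are arrays on which the miRNA was detected, open points are arrays on which it was not, bars are group means and the dashed line is the floor. The 10 Gy points lie below the 0 Gy points in each pair, and miR-1198-5p is at the floor on all 10 Gy serum arrays.

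Each slide had 2 rows of arrays, and each row held both doses. In row 1 alone the serum differences were -2.21 for miR-344i and -0.96 for miR-1198-5p, and in row 2 alone they were -3.02 and -1.03. In intestine they were -0.87 for miR-344i and -0.47 for miR-1198-5p in row 1, and -1.51 and -0.88 in row 2. All 8 within-row differences were negative. After scaling, neither miRNA overlapped between the doses in serum or intestine, so nearly any split of these arrays gives negative values. Nothing is therefore read from their sign. In serum each row held only 1 array at 0 Gy. Background was also corrected by the normexp method on the median spot signal, which added an offset of 50 units to each spot. The serum differences were then -0.36 for miR-344i and 0.08 for miR-1198-5p, and the intestinal ones -0.49 and -0.38. As 50 units are large beside most signals of the pair, such an offset narrows their log2 differences. The part of the offset was not tested apart from that of the background method.

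**Figure D3:**
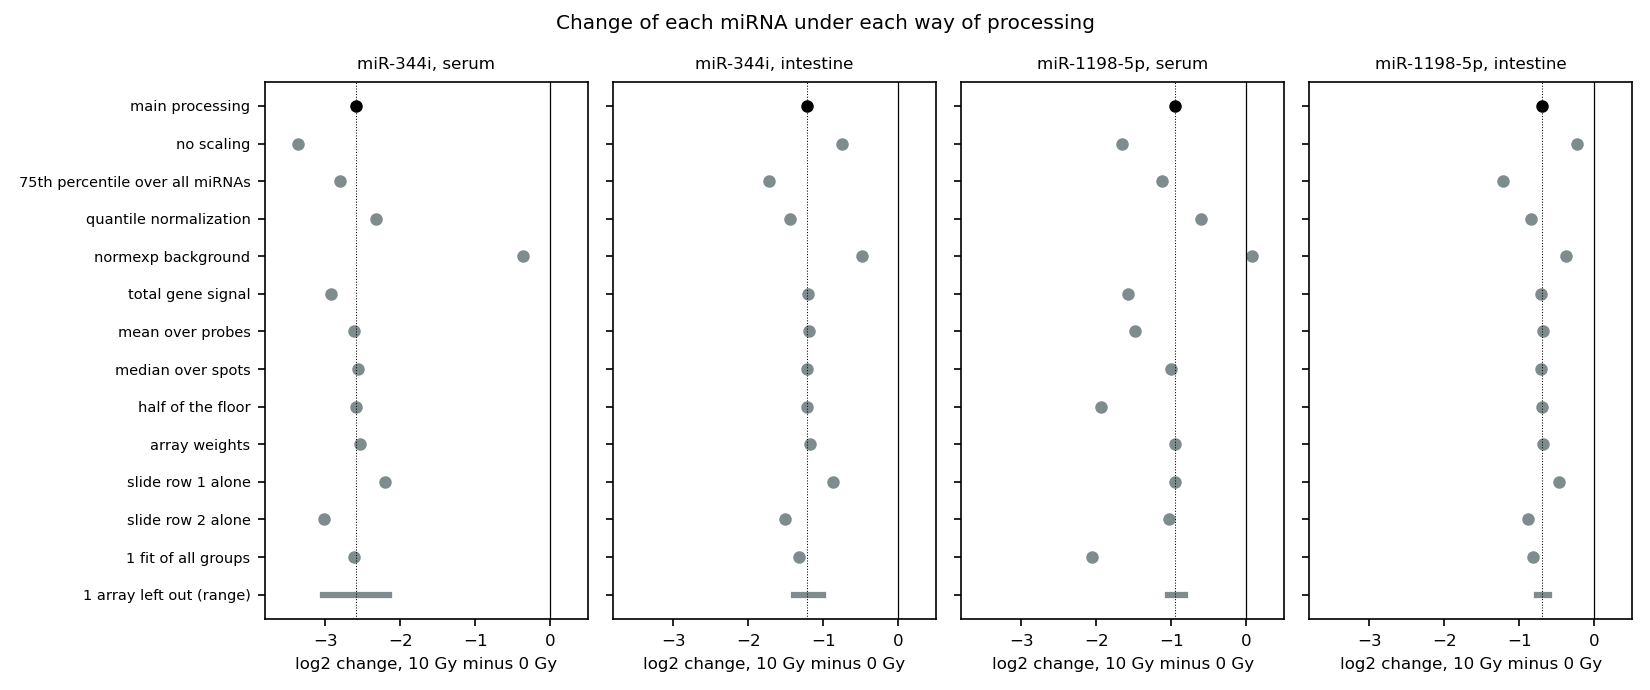
Difference in scaled log2 level, 10 Gy minus 0 Gy, of each miRNA in each sample type under 12 alternative ways of processing (grey), the main processing (black, dotted line) and the range when 1 array is left out (grey bar). Every value lies below 0 except that of miR-1198-5p in serum with the normexp background, 0.08.

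The pair is set apart by a threshold. Of 144 miRNAs measured in both serum and intestine, 29 were lower at 10 Gy in both, and 2 of these, miR-344i and miR-1198-5p, were lower with an adjusted p under 0.05 in both. That share compares with 3.63% of all miRNAs called lower in serum and 15.8% in intestine, and since the pair was chosen on these calls nothing is read from it. The serum calls depended on the processing. With the replicate number as a block, and also with no filter on detection, neither miRNA was called in serum, and limma called 0 miRNAs lower there, against 7 in the main processing. At an unadjusted p under 0.05 the number was 18 in each of these alternatives, against 27. When only miRNAs detected on every array were tested, neither entered the serum fit. The serum call held in 17 of 22 alternatives for miR-344i and in 12 of 22 for miR-1198-5p, and the intestinal call in 23 of 25 and in 22 of 25. Just outside stood miR-25-3p, a member of the miR-106b/25 cluster, with -1.63 in serum and -0.65 in intestine. Next came miR-5622-3p with -1.59 in serum and -0.92 in intestine, and then miR-3620-5p with -0.99 and -0.41. All 3 differed by more in serum than miR-1198-5p did in the main processing. That order depends on the floor, where miR-1198-5p stood on all 4 arrays of 10 Gy serum. With a lower floor its difference was -1.94.

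In serum, red cell miRNAs were lower together with the pair. miR-451a, which is made in great amounts by red cell precursors, gave summed signals of 11.4, 13.2, 31.6 and 2.40 at 10 Gy, against 375 and 144 at 0 Gy. miR-486a-5p, also abundant in red cells, ranged from 729 to 2392 at 10 Gy and from 4461 to 8698 at 0 Gy. On the scaled log2 level both fell, by 3.41 (limma, adjusted p = 0.0152) and by 1.46 (limma, adjusted p = 0.0239). At 10 Gy miR-451a was detected on 1 of 4 serum arrays and at the floor on 2, so its size depends on the floor. Detection on both 0 Gy arrays alone let miR-451a enter the fit, and nothing is read from its adjusted p. miR-451a and miR-486a-5p are among the 7 miRNAs called lower in serum, 3.63% of those tested. With the replicate block, and also with no filter on detection, 0 were called lower there. miR-144-3p, the third red cell marker, was detected on no array of the study. The summed signal of the 3 markers was 728 to 2402 at 10 Gy and 4602 to 9070 at 0 Gy. The other markers that entered the serum fit, 2 of smooth muscle and 1 of neurons, did not pass the test, and no epithelial, leukocyte or liver marker entered it.

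In intestine, markers of several cell types were set beside the pair on the same scaled log2 level. Of the 6 epithelial markers, 4 were called lower, against 15.8% of the 335 miRNAs tested in intestine. miR-194-5p (limma, adjusted p = 0.0570) and miR-215-5p (limma, adjusted p = 0.0518) missed the threshold. All 6 differences were negative, with a median of -0.69, against 0.16 over all miRNAs tested. The unscaled sum of the 6 markers overlapped between the doses, 39570 to 57202 at 10 Gy and 41492 to 67925 at 0 Gy. Of the 3 leukocyte markers, the lymphocyte miRNA miR-150-5p fell by 2.32 (limma, adjusted p = 0.00139) and miR-142a-3p fell by 1.04 (limma, adjusted p = 0.00342), while the myeloid miR-223-3p rose by 1.20 (limma, adjusted p = 0.000471). At 10 Gy miR-150-5p was detected on 1 of 4 intestinal arrays, against 4 of 4 at 0 Gy. The 0 Gy arrays alone thus let miR-150-5p enter the fit, and nothing is read from its adjusted p. The summed leukocyte signal was 879 to 1621 at 10 Gy and 790 to 1489 at 0 Gy.

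Of the red cell markers in intestine, miR-486a-5p rose by 0.66 (limma, adjusted p = 0.0114) and miR-451a differed by 0.21 (limma, adjusted p = 0.550). At 0 Gy miR-486a-5p was detected on 0 of 4 intestinal arrays and at the floor on 1, against detection on 4 of 4 at 10 Gy. The 10 Gy arrays alone thus let it enter the fit, and nothing is read from its adjusted p. Its summed signal did not overlap between the doses, 22.2 to 26.3 at 10 Gy and 9.52 to 12.5 at 0 Gy. The unscaled sum of the red cell markers overlapped, 196 to 359 at 10 Gy and 111 to 198 at 0 Gy. None of the 4 smooth muscle markers passed the test on the scaled level, where their median was 0.23, although their unscaled sum was 3236 to 4031 at 10 Gy and 1992 to 2724 at 0 Gy. No neuron or liver marker entered the intestinal fit. What part any of these cell types had in the differences of the pair was not tested.

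The sample types were compared on 1 scale, with the percentile computed from 81 miRNAs that all 22 arrays detected, in a limma fit of all 6 groups and 749 miRNAs. This contrast averages both doses. The choice of the pair required detection in serum and intestine but not in feces, so the difference of feces is given with no test. On this scale miR-344i was highest in 0 Gy serum, at -2.06 ± 0.53 (SD, n = 2), followed by 0 Gy intestine at -3.23 ± 0.30 and 10 Gy intestine at -4.56 ± 0.55 (SD, n = 4 each). Then came 10 Gy serum at -4.67 ± 0.12 (SD, n = 4), which differed from 10 Gy intestine by less than the spread between arrays. All 8 fecal arrays were at the floor of -6.41.

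For miR-1198-5p the order was 0 Gy intestine at -3.56 ± 0.22 (SD, n = 4), 0 Gy serum at -4.31 ± 0.04 (SD, n = 2) and 10 Gy intestine at -4.37 ± 0.42 (SD, n = 4). The last 2 of these differed by less than the spread between arrays. In 10 Gy serum it was at the floor on 3 of the 4 arrays, and it was at the floor on all 8 fecal arrays.

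Both miRNAs read lower in feces than in intestine. Probe 2 of miR-344i averaged 3.25 ± 3.64 in feces and 32.9 ± 10.8 in intestine, and probe 2 of miR-1198-5p 4.51 ± 3.98 in feces and 44.3 ± 6.43 in intestine (SD, n = 8 arrays each, unscaled). On the scaled log2 level the difference, feces minus intestine, was -2.52 for miR-344i and -2.45 for miR-1198-5p, with every fecal value at the floor. After scaling, which divided fecal signals by other percentiles than intestinal ones, probe 2 was at least 16.6-fold lower in feces for miR-344i and at least 23.0-fold lower for miR-1198-5p. These bounds start from the mean of the intestinal arrays of both doses. Their fecal side was not the lowest detected signal alone, as its mean log2 was -8.499 for miR-344i and -8.486 for miR-1198-5p. For each miRNA all 8 intestinal arrays lay above the floor of the scaled log2 level, and the choice of the pair had required detection in intestine. How many of the other miRNAs were separated in this way was not counted. Of all miRNAs in the fit, 39.1% were called lower in feces.

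Serum was set against intestine in the same fit. The groups whose dose differences chose the pair also enter this contrast, so its values for the pair are given with no test. Averaged over the doses, miR-344i was higher in serum by 0.53, and 23.9% of the miRNAs tested were called higher. Taken by dose, the difference was -0.10 on the 10 Gy arrays and 1.20 on the 0 Gy arrays, which restates the dose changes that chose the pair. The average was -0.22 without scaling, and 0.34 without replicate 2 of 0 Gy serum. miR-1198-5p was lower in serum, with a difference of -1.37, and 34.6% of all were called lower. The size of its difference depends on the floor, where 3 of 4 arrays of 10 Gy serum stood. By dose it was -2.01 on the 10 Gy arrays and -0.72 on the 0 Gy arrays, and with the normexp background the average was 0.03.

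Dose in feces is the comparison that the choice of the pair left free, but neither miRNA was detected on the number of arrays needed to enter the fit. With no filter on detection, miR-344i differed by -0.10 (limma, adjusted p = 1.0) and miR-1198-5p by -0.11 (limma, adjusted p = 0.844). At 10 Gy all 4 fecal arrays were at the floor for each, and at 0 Gy 3 were for miR-344i and 2 for miR-1198-5p. A change of either miRNA in feces was therefore not detectable at these signals.

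The array holds 17 further names of the same families, 16 of miR-344 and miR-1198-3p, the other arm of the miR-1198 hairpin. None of the 17 was detected on any serum or intestinal array. Of the 16 miR-344 names, 4 were detected in feces on at least 1 array, where miR-344i was on none. Over all 1881 miRNAs, each fecal array detected 378 to 675, each intestinal array 285 to 389 and each serum array 131 to 219. Nothing is therefore read from the count of 4. miR-344f-5p and miR-344g-5p were detected on all 8 fecal arrays, miR-344g-3p on 7, and miR-344f-3p on 1. miR-344f-5p, which holds the same run UCCUGGCUGG as the pair, thus gave signal in the 1 sample type where miR-344i and miR-1198-5p gave none. miR-344g-5p, which shares its first 15 letters with positions 2 to 16 of miR-344i (AGUCAGGCUCCUGGC), did the same. miR-1198-3p was detected on no array.

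**Figure D4:**
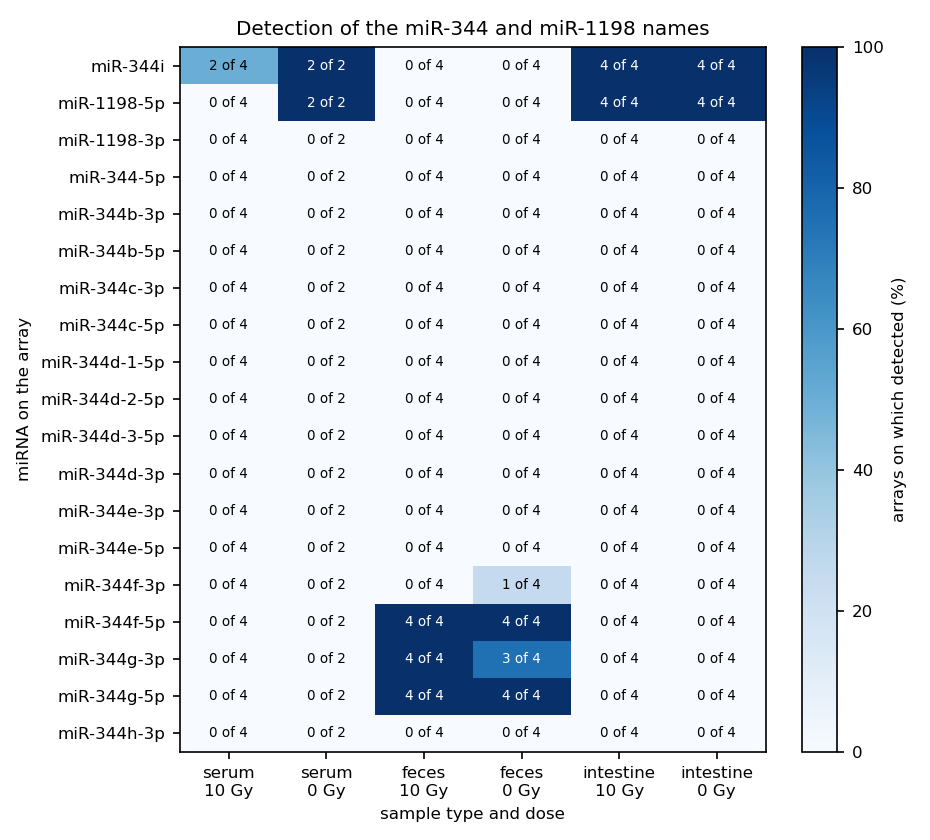
Number of arrays on which each of the 19 miR-344 and miR-1198 names was detected, by sample type and dose, with the share of arrays in colour. Detection of miR-344i and miR-1198-5p is limited to serum and intestine, and detection of miR-344f-3p, miR-344f-5p, miR-344g-3p and miR-344g-5p to feces.

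Dose could be tested for 3 of these relatives, all in feces, and 1 passed, lower at 10 Gy, as did 4.07% of the 491 miRNAs tested there. miR-344f-5p gave summed signals of 24.3, 39.9, 43.1 and 25.4 at 10 Gy, against 124, 60.6, 531 and 115 at 0 Gy. Every 10 Gy array lay below every 0 Gy array, as for 9.37% of the miRNAs in feces, and replicate 3 at 0 Gy stood far above the other 3. Both of its probes showed the same order, from 12.7 to 21.5 at 10 Gy and from 34.8 to 296 at 0 Gy for probe 1, and from 11.7 to 21.6 and from 25.8 to 235 for probe 2. On the scaled log2 level it fell by 1.54 ± 0.37 (SE, limma, adjusted p = 0.0439). The call was lost when any of 7 of the 8 arrays was left out, with differences between -1.82 and -1.31 and adjusted p up to 0.147 by limma. Over all 25 alternatives every difference was negative, and the adjusted p ranged from 8.88e-05 to 0.593.

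miR-344g-5p differed by -0.15 ± 0.38 (SE, limma, adjusted p = 0.799), with summed signals of 32.5 to 99.9 at 10 Gy and 28.5 to 203 at 0 Gy. miR-344g-3p, from the other arm of the same hairpin, differed by 0.80 ± 0.33 (SE, limma, adjusted p = 0.107), with 33.2 to 65.1 at 10 Gy and 13.4 to 126 at 0 Gy. For both the doses overlapped. Whether miR-344f-5p differed from them in its response was not tested.

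**Figure D5:**
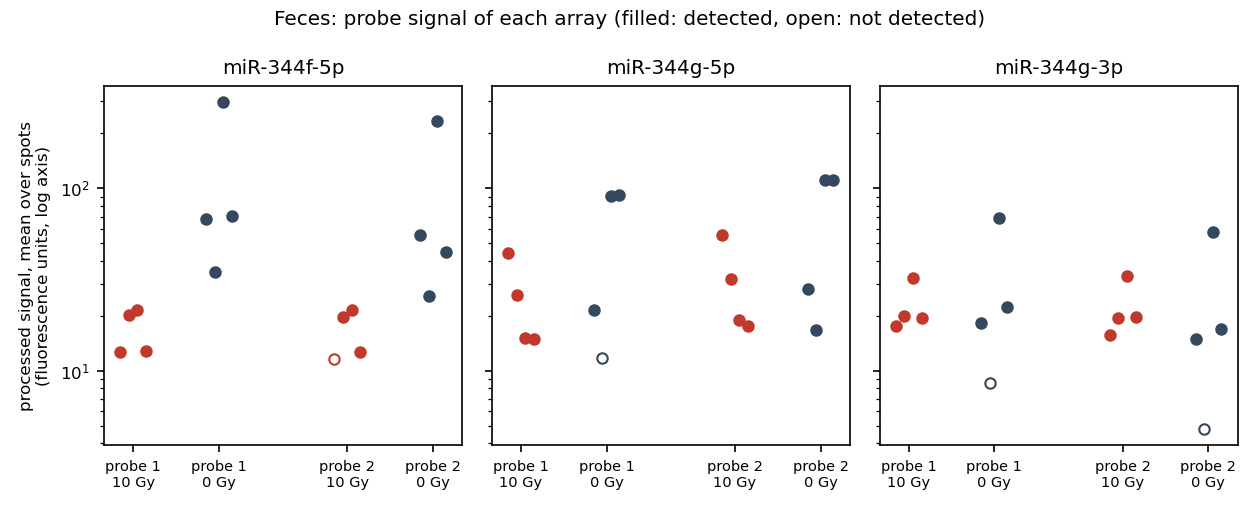
Processed signal of each probe of miR-344f-5p, miR-344g-5p and miR-344g-3p on each fecal array by dose (log axis, fluorescence units). Filled points are arrays on which the probe was detected and open points are arrays on which it was not. The 10 Gy points of miR-344f-5p lie below its 0 Gy points for both probes, and those of the other relatives overlap.

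The miRNAs whose scaled levels across the 22 arrays were most like those of the pair were ranked by Pearson's r among those detected on at least 11 arrays. The 22 arrays form 3 clusters of sample type and share depth and slide within each, so r is a description here. For miR-344i the 5 nearest were miR-140-3p (r = 0.91), miR-423-5p (0.88), miR-451a (0.87), miR-3472 (0.86) and miR-30d-5p (0.85). For miR-1198-5p they were miR-25-3p (r = 0.95), miR-451a (0.91), miR-30e-5p (0.91), miR-106b-5p (0.88) and miR-3963 (0.88). miR-451a was near both, and the pair itself had r = 0.81 with each other.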

How the data were processed

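The authors deposited the scanner output of each array, made with Agilent Feature Extraction 11.5 per the submitters' processing notes. Per the file headers its intensity values are linear, background-subtracted and not normalized between arrays. The authors' series table held the same intensity values (100% within 1%), with column medians from -1.69 to 2.03, so it is linear, uncentred and of the same direction. The deposited detection, outlier and saturation flags were also used.

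Each array had 56430 spots for 4415 mouse probes. Processed signals were averaged over the spots of a probe not marked as outliers, summed over the probes of a miRNA, scaled by the 75th percentile over miRNAs detected on all arrays (121 in serum, 326 in feces, 268 in intestine) and floored at the median over arrays of the lowest detected scaled value. Doses were compared per sample type with limma 3.58.1 in R 4.3.3 and Benjamini-Hochberg adjustment, among miRNAs whose number of arrays with detection reached the size of the smaller group. The number of arrays limits precision.

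The pair, the lists and the rule for names (the pair, all miR-344 and miR-1198 names, shared seeds, the 5 most alike per miRNA, neighbours at the threshold) were chosen with earlier results of these data known. Scripts were tested on simulated data. Names matched RefSeq for 1608 of 1881 miRNAs and 19 of 19 family names. The array design's older build was not used here. Alternatives changed scaling, background, summary, floor, filter, weights, blocks and arrays. The scanner files' median signal stood in for the mean signal in the normexp alternative, which added an offset of 50 units to each spot. Deviations of samples sharing a replicate number correlated at 0.28 and 0.44 in the 2 serum pairs and at -0.56 to 0.44 in the other sample types; as not every pair was positive and the labels name no shared source, numbers were not treated as pairs.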

Additional observations from a re-analysis of the deposited data

Results flagged for a closer look

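miR-344f-5p in 0 Gy feces had a summed processed signal of 531 in replicate 3, against 124, 60.6 and 115 in the other 3 arrays, a gap larger than a test for a single extreme value allows. Of 22 such tests 1 was past its limit, and chance gives about 1 in 20. The same array had the most detected miRNAs (675) and the highest 75th percentile (2627). After scaling, its log2 level of -2.31 stood beside -2.76, -3.12 and -3.86. Without it the difference, 10 Gy minus 0 Gy, was -1.31, with an adjusted p of 0.0787 by limma.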

How the results depend on the processing

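Differences are on the scaled log2 level, 10 Gy minus 0 Gy unless another contrast is named; apart from the choices named here, their causes were not tested. miR-344i was lower in all 24 serum and 27 intestinal alternatives, miR-1198-5p in 22 of 23 and 26 of 26. The pair was chosen for being lower in both sample types, so nothing is read from these counts. Without scaling, miR-344i gave -3.36 in serum and -0.75 in intestine, and miR-1198-5p -1.66 and -0.24. With the percentile over all miRNAs, miR-344i gave -1.73 in intestine, and miR-1198-5p -1.12 in serum and -1.22 in intestine. With the normexp background, miR-344i gave -0.36 in serum and -0.49 in intestine, and miR-1198-5p 0.076 and -0.38. With the software's total gene signal the serum values were -2.92 and -1.58. miR-1198-5p in serum was -0.61 after quantile normalization, -1.48 with the mean over probes, -1.94 with a lower floor and -2.06 in 1 fit of all groups. In slide row 1 and row 2 alone, miR-344i gave -2.21 and -3.02 in serum, and miR-1198-5p gave -1.03 in serum row 2 and -0.47 and -0.88 in intestine. Single probes without scaling, an alternative chosen after seeing the data, gave -4.15 and -3.09 for probes 1 and 2 of miR-344i in serum, -0.70 for its probe 2 in intestine, and -2.94 in serum and -0.27 in intestine for probe 2 of miR-1198-5p. Leaving out 1 array gave -3.03 to -2.15 for miR-344i and -1.05 to -0.82 for miR-1198-5p in serum, and -1.39 to -1.01 and -0.76 to -0.60 in intestine.

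Serum minus intestine, given with no test, was -0.22 for miR-344i without scaling, -0.10 on 10 Gy arrays only, 0.40 with the total gene signal and 0.34 to 0.72 with 1 array left out. For miR-1198-5p it was 0.031 with the normexp background, and it was negative in 36 of 37 alternatives. Feces minus intestine was negative in all 37 alternatives for each. Every fecal value was at the floor in the main processing, and the choice of the pair had required detection in intestine. Nothing is therefore read from that sign. miR-344f-5p in feces, whose alternatives were chosen after seeing the data, missed the threshold with normexp (-0.31), the mean over probes (-1.46), detection on every array or no filter (-1.54, with different numbers of miRNAs tested), the slide row as a block (-1.54), row 1 (-1.75) and row 2 (-1.25); with 1 array left out it ranged from -1.82 to -1.31. The pair in feces had no value under the filter on detection, so the alternatives there are the unfiltered ones in the report.

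Replicate numbers were not taken as pairs. With the replicate block miR-344i gave -2.63 in serum and -1.21 in intestine, and miR-1198-5p -0.96 and -0.70. The serum calls that chose the pair were lost for both miRNAs. Since the pair was chosen on these calls, their adjusted p-values are not given. The intestinal calls and that of miR-344f-5p were kept. The number of miRNAs called lower was 0 in serum, 22 in feces and 51 in intestine, against 7, 20 and 53 without it. Those 3 numbers ranged over all alternatives from 0 to 18, 0 to 66 and 10 to 86. Signal over background limits the values of both miRNAs in feces, of miR-1198-5p in 10 Gy serum and of miR-344i on 2 of 4 arrays there, and serum had 2 arrays at 0 Gy.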
